A study of Mus musculus with 2 samples.

Results

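A set of 9 genes, of 32285 features counted, codes for the interleukin-12 family chains, the interleukin-15 pair, the interleukin-18 inhibitor and interleukin-10. They are Il12a, Il12b, Il23a, Il27, Ebi3, Il15, Il15ra, Il18bp and Il10, picked by symbol, and each of them was detected in both conditions. The study injected MSA-2, a small molecule that activates STING, into MC38 tumors, a mouse colon carcinoma line grown in mice, and profiled the dissociated tumors by droplet 3′ RNA sequencing of cells. The question addressed here is which myeloid, stromal and other cells carried these transcripts, and how their levels differed with MSA-2. Each condition is a library made from the pooled tumors of 3 mice, given 3 intratumoral doses at intervals of 3 days. The control tumors received saline with 10% DMSO according to the series text, while the sample labels call them untreated, and the name untreated is kept below. Strain and age are not given in the labels. The labels name the cell type as tumor cells and the methods speak of immune cells, and the data hold tumor, immune and stromal cells together.

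The untreated library held 14386 barcodes and 198135335 UMIs, and the MSA-2 library 14617 barcodes and 204387165 UMIs. These barcode numbers equal those given in the methods after quality filtering, and the libraries shared 53 barcode sequences. After filtering and removal of predicted doublets, 13334 untreated cells with a median of 8298.5 UMIs and 13393 MSA-2 cells with a median of 9271 UMIs were kept. With 1 library per condition there is no spread between tumors to compare against, so no test was made. Intervals below are exact 95% intervals that cover counting error only, and library, tumor pool and treatment cannot be told apart.

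Interleukin-12 is a heterodimer of the Il12a and Il12b chains, made chiefly by dendritic cells and macrophages, that drives interferon gamma production in T and NK cells. The Il12b chain also pairs with the Il23a chain to form interleukin-23, and Ebi3 pairs with the Il27 chain to form interleukin-27 or with Il12a to form interleukin-35. Interleukin-15 is held on the surface of the producing cell by Il15ra and presented to NK and CD8 T cells, Il18bp is a soluble decoy for interleukin-18, and interleukin-10 restrains myeloid activation.

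Cells were placed in classes by the score of marker genes, which do not include any of the 9 genes, and 83.7% of untreated and 81.6% of MSA-2 cells were assigned. The class of a cell matched that of its graph cluster in 97.4% and 98.0% of assigned cells whose cluster had a class. Because the score is continuous, a class is a range and not a type, and 1226 untreated and 1586 MSA-2 cells that were left unassigned lay close to the limits of the score. The markers were checked in each class: 10 of 10 macrophage, monocyte, fibroblast and endothelial markers had UMIs in their own class in both libraries, as had 12 of 12 neutrophil markers in the MSA-2 library and 11 of 12 in the untreated library. Of the tumor markers 9 of 10 had UMIs in tumor cells, with a median of 5 per cell in both libraries. MSA-2 tumor cells had as many fibroblast markers (a median of 5 of 10), untreated tumor cells had 4 of 10 macrophage markers, and untreated cDC2 had 3 of their own 7 and 4 of 10 macrophage markers. In each class, no marker of another class was among the 10 genes with the highest fold over the remaining cells. In untreated tumor cells and untreated fibroblasts no marker of the class itself was either. The same held for B cells (2 untreated, 1 MSA-2) and the 1 plasmacytoid dendritic cell of the MSA-2 library. The classes used most were macrophages (3599 untreated and 1101 MSA-2 cells), Ly6c2 monocytes (337 and 716), T cells (1110 and 135), NK cells (212 and 107), fibroblasts (199 and 641), endothelial cells (63 and 82) and tumor cells (5313 and 5513). Neutrophils numbered 33 untreated and 2585 with MSA-2, so their untreated values rest on 42251 UMIs. Dendritic cells could be described in the untreated library alone, since its 68 cDC1, 101 cDC2 and 71 mature regulatory dendritic cells (mregDC, marked by Ccr7, Ccl22 and Fscn1) faced 3, 0 and 15 in the MSA-2 library.

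Over all kept cells, the transcripts of Il12a, Il23a, Il27 and Il15 were more abundant in the MSA-2 library and those of Il12b were scarcer. Levels are counts per 1000000 UMIs of the cells summed (CPM). Of the 9 genes, 4 were at least 2-fold higher, against 11.2% of the 19509 genes with at least 20 UMIs, and 1 was at least 2-fold lower, against 8.36%. The median log2 ratio was 0.98 for the 9 genes and 0.02 for all genes. Il12a went from 5 UMIs to 213, a log2 ratio of 5.35 (4.10 to 6.98), or 3.87 with a stricter cell filter, and without the 10 highest cells there was no value. Il12b moved the other way, from 2007 UMIs to 109, a log2 ratio of -4.27 (-4.56 to -3.99), or -5.69 without the 10 highest cells of each library. The chains of interleukin-12 thus went in opposite directions, each by a wide margin. Il23a rose from 0.605 to 3.67 CPM, a log2 ratio of 2.60 (2.31 to 2.90), or 3.85 with equal weight per cell. Il27 rose from 1.67 to 14.9 CPM, a log2 ratio of 3.16 (2.99 to 3.33), or 3.96 with equal weight per cell. Il15 rose from 25.7 to 92.9 CPM, a log2 ratio of 1.85 (1.81 to 1.90), or 2.65 with equal weight per cell. The remaining 4 genes were within 2-fold. Il15ra, the presenting chain, was close to that limit, with a log2 ratio of 0.98 (0.93 to 1.03), and passed it with equal weight per cell (1.53). Il10 had a log2 ratio of 0.60 (0.50 to 0.70), and also passed 2-fold with equal weight per cell (1.01). Ebi3 had a log2 ratio of -0.92 (-1.09 to -0.75), or -1.57 with the stricter cell filter, but 0.13 when each cell was given equal weight. Il18bp had a log2 ratio of -0.18 (-0.23 to -0.12), but 0.19 with equal weight per cell.

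**Figure D1:**
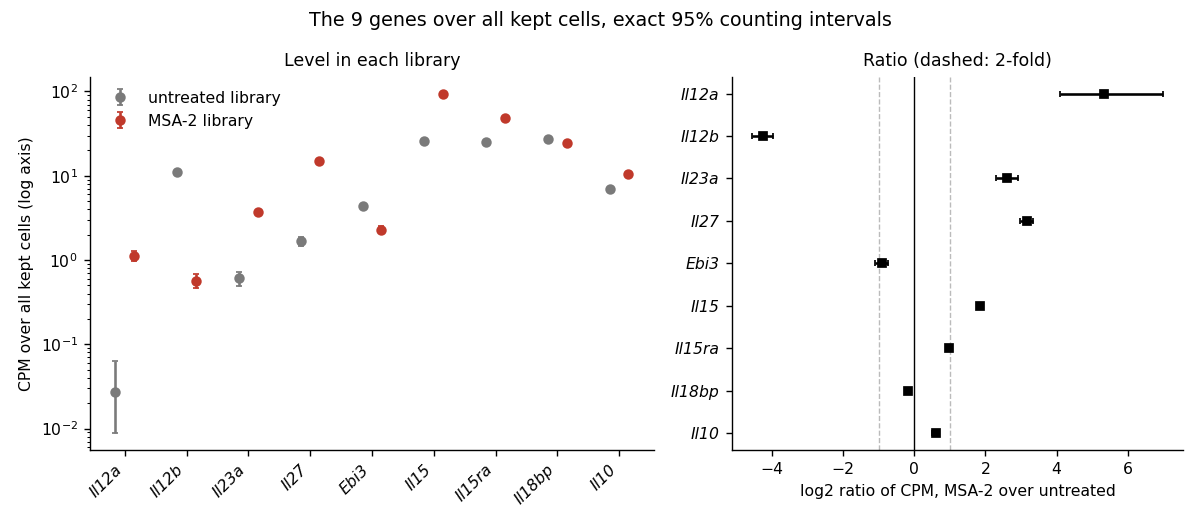
Level of each gene over all kept cells in the untreated (gray) and MSA-2 (red) libraries as CPM on a log axis, and their log2 ratio, with exact 95% counting intervals. Il12a, Il23a, Il27 and Il15 lie beyond 2-fold higher and Il12b beyond 2-fold lower, while the ratios of Ebi3 and Il18bp change sign when cells are weighted equally (0.13 and 0.19).

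Sources differed from gene to gene, and several shifted between the libraries. Tumor cells held 65.2% of all untreated UMIs and 66.8% of those with MSA-2, so a gene spread evenly would have about that share there. Il15 was near that share in untreated tumors, with 67.6% of its UMIs in tumor cells. Il12b was far from it, with 5.83% in tumor cells. The tumor shares depend strongly on the gate: with a stricter gate 20.1% of untreated Il15 UMIs were assigned to tumor cells, and with graph clusters 83.3%.

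**Figure D2:**
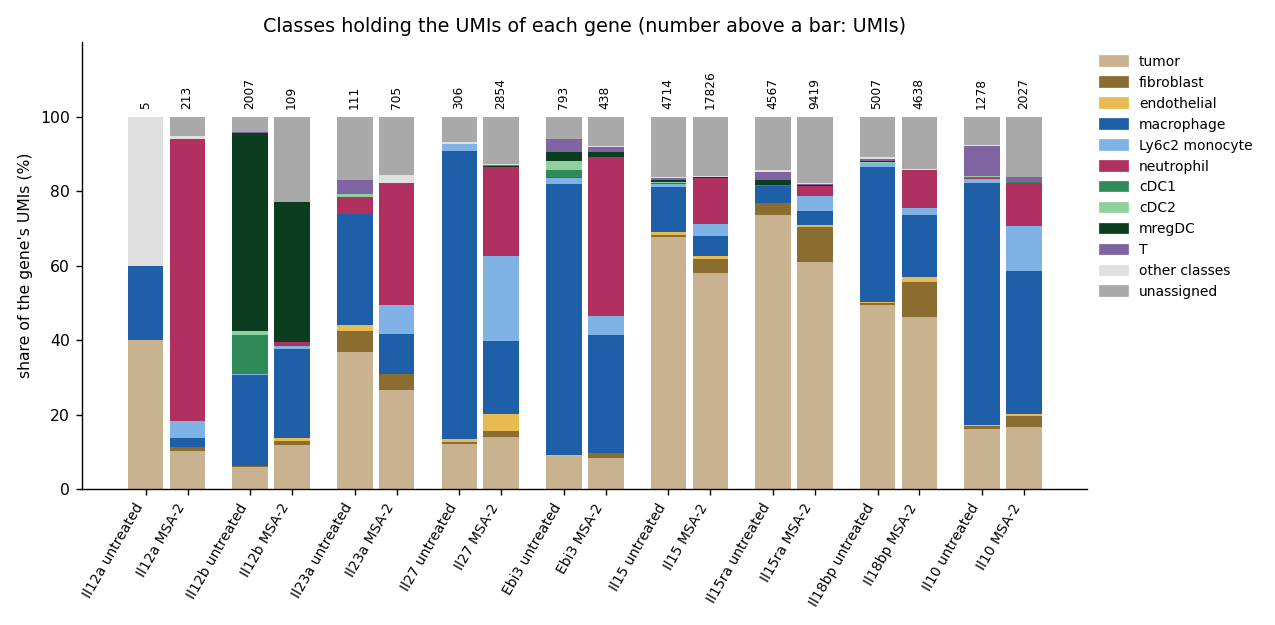
Share of each gene's UMIs held by each marker-gated class, per gene and library, with the number of UMIs above the bar. The share of Il12b held by mregDC was 53.2% in the untreated library, and neutrophils held 75.6% of Il12a in the MSA-2 library.

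Il12b codes for the chain shared by interleukin-12 and interleukin-23 (ENSMUSG00000004296, chr11:44400063-44414033, plus strand, GRCm38). In the untreated library, mregDC held 53.2% (51.0 to 55.4) of its UMIs although they carried 0.251% of all UMIs. Macrophages held 24.5% of Il12b UMIs and cDC1 10.3%. These are the cells known to make interleukin-12. The level of Il12b was 2325 CPM in untreated mregDC, 307.2 CPM in cDC1 and 23.4 CPM in macrophages, with intervals apart. In cDC2 it was 32.6 CPM, from 23 UMIs in 3 of 101 cells with 18 in 1 cell, while the cDC2 graph cluster of 233 cells had 2.10 CPM, so cDC2 were not ranked. Transcripts sat in few cells: 323 untreated cells had any, the highest had 161 UMIs, and the top 10 cells held 38.6% of all. In the MSA-2 library 33 cells had any, and the top 10 held 77.1%. The 15 mregDC of that library still held 41 of its 109 UMIs, or 638.6 CPM (458.2 to 866.3), but they are too few for a ratio. No graph cluster of that library got the mregDC class. Within macrophages, where both libraries have cells enough, Il12b went from 491 UMIs to 26, or 23.4 to 4.48 CPM, a log2 ratio of -2.38 (-3.01 to -1.81). These macrophage UMIs lay in 2.89% of 3599 and 0.817% of 1101 cells, and the thinned shares of macrophages, 1.27% (0.924 to 1.70) and 0.576% (0.212 to 1.249), have overlapping intervals. Among macrophages without a Folr2 UMI, a split chosen after values were seen, Il12b went from 24.8 to 6.66 CPM. Those with Folr2, a larger part of the class with MSA-2, had 3 and 1 UMIs. Lower Il12b in the MSA-2 library therefore went with fewer dendritic cells and with lower CPM within macrophages. Without thinning by depth, 2.16% of untreated tumor cells had an Il12b UMI, but tumor cells were deep, with a median of 20565 UMIs against 3213.5 in T cells. After thinning each cell to 1500 UMIs, 0.229% of tumor cells and 0.187% of T cells had one, against 48.5% (36.0 to 61.1) of mregDC and 14.9% (7.40 to 25.7) of cDC1. The tumor share was not distinguishable from that of T cells, which rests on 2 of 1071 cells. Free RNA was not measured apart from cells, so expression and free RNA cannot be told apart in tumor cells, nor in their Il12b log2 ratio of -3.27 (-4.22 to -2.44), or -4.54 with the stricter gate.

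Il12a codes for the chain that interleukin-12 shares with interleukin-35 but not with interleukin-23 (ENSMUSG00000027776, chr3:68690644-68698547, plus strand). Its 5 untreated UMIs lay in 5 cells of 4 classes. Of its 213 UMIs in the MSA-2 library, neutrophils held 75.6% (69.2 to 81.2). The neutrophil level was 31.7 CPM (27.0 to 37.0) with MSA-2, and the 0 UMIs of the untreated neutrophils allow up to 71.0 CPM, so no direction within neutrophils was detectable at this depth. Neutrophils of the MSA-2 library stood above monocytes at 3.75 CPM (1.80 to 6.90), macrophages at 0.861 CPM (0.280 to 2.01) and tumor cells at 0.172 CPM (0.108 to 0.260). Monocytes had 0 untreated UMIs, which allows 2.40 CPM, and 10 with MSA-2, at least 1.56-fold higher by that limit. The MSA-2 interval of monocytes takes in 2.40 CPM, so with counting error the direction is not firm. Thinned to 1500 UMIs, 4.26% (3.39 to 5.28) of MSA-2 neutrophils had an Il12a UMI, 0.0183% of tumor cells and 0 of 129 T cells, which allows up to 2.33%.

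Cells with both chains of interleukin-12 were counted as well. Of 328 untreated cells with either Il12a or Il12b, 0 had both, and of 217 MSA-2 cells 1 had both, a neutrophil. Both chains were rare and sparse counts miss transcripts, so these numbers do not show whether the chains share cells. Where Il12b was abundant, in untreated mregDC, Il12a had 0 UMIs, which allows up to 6.53 CPM.

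The promoter table used, made from RefSeq (build GRCm38.p6), holds the sequence around the start of 5 of the 9 genes, in 7 entries, and has no entry for Il23a, Il27, Il15 or Il10. The 250 bases before the start are shown for the chains of interleukin-12, since these moved in opposite directions, in lower case as none of the motifs searched occurs there. Il12a has another start as well, and the entry shown is the one at chr3:68690394-68690643, plus strand. The Il12b entry is at chr11:44399813-44400062, plus strand.
Il12a: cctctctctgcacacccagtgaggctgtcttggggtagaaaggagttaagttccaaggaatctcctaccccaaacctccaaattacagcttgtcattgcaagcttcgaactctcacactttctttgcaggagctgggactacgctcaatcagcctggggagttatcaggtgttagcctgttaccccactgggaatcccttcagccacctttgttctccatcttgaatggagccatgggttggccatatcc
Il12b: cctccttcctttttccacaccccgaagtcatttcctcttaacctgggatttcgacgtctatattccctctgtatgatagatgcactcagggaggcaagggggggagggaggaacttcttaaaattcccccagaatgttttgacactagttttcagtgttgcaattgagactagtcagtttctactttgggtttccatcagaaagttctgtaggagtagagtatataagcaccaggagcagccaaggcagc
Motifs were searched on both strands of the 300-base windows. GAAA, any 2 bases and GAAA, the core of the interferon-stimulated response element, occurs in 3.44% of the 32851 promoters of the table, TTCNNNGAA, a STAT element, in 8.30%, and GGGA, any base, TT, any base and CC, an NF-kB element, in 1.20%. None of these 3 was in any of the 7 entries, which says only that these letters are not in these windows. AANNGAAA, a shorter IRF core that every match of the first contains, was added after the sequences had been seen and occurs in 23.9% of promoters. It was found 1 time in each of the 2 entries of Il15ra and in none of the other 5. The 30 bases around each match follow, with the match in capitals, at chr2:11705095-11705124 and chr2:11705727-11705756, plus strand.
Il15ra entry 1: ctttcctccttTTTCTATTctttcccctcc
Il15ra entry 2: ggctaaagcaaAAGCGAAAgcgaatactcc

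Il23a, which with Il12b makes interleukin-23 (ENSMUSG00000025383, chr10:128296139-128298752, minus strand), had several sources in the MSA-2 library. Neutrophils held 32.8% (29.3 to 36.4) of its 705 UMIs there, at 45.5 CPM (39.8 to 51.8), and unassigned cells held 15.7%. In untreated neutrophils its 5 UMIs all lay in 1 cell, and the neutrophil log2 ratio of -1.38 (-2.62 to 0.26) spanned 0. Monocytes went from 0 UMIs to 55, at least 8.58-fold higher, reaching 20.6 CPM (15.5 to 26.9). Macrophages went from 1.57 to 12.9 CPM, a log2 ratio of 3.04 (2.43 to 3.68). NK cells went from 0 UMIs to 12, in 7 cells, at least 6.14-fold higher, reaching 15.3 CPM (7.90 to 26.7). Fibroblasts, at 2.44 and 3.17 CPM, had a log2 ratio of 0.37 (-0.91 to 1.93), not a detectable difference. Tumor cells held 36.9% of untreated and 26.7% of MSA-2 Il23a UMIs, but at low levels of 0.343 and 1.47 CPM. Their log2 ratio was 2.10 (1.60 to 2.62), or 2.98 with the stricter gate. Thinned shares with MSA-2 were 4.85% (3.92 to 5.92) of neutrophils, 2.94% (1.78 to 4.56) of monocytes, 1.34% (0.736 to 2.24) of macrophages, 0.952% of NK cells (1 of 105), 0.220% of tumor cells and 0.775% of T cells (1 of 129). The T cell interval, 0.0196 to 4.24, takes in the shares of monocytes, macrophages and NK cells, so these were not shown to be above T cells by share. Untreated, 0.260% (0.119 to 0.492) of macrophages and 0 of 207 NK cells had a UMI, which allows 1.45%, so a higher NK share was not shown either. Cells with both chains of interleukin-23 numbered 3 of 406 with either in the untreated library and 2 of 535 with MSA-2. Both chains were found in few cells, and whether they share cells more or less often than their rarity alone would give was not tested.

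Il27 codes for the chain particular to interleukin-27 (ENSMUSG00000044701, chr7:126589010-126594941, minus strand, where Apobr overlaps on the other strand). In the untreated library it was a macrophage transcript, with 77.5% (72.4 to 82.0) of 306 UMIs. With MSA-2 its 2854 UMIs were spread over neutrophils (24.0%), monocytes (22.7%), macrophages (19.8%), tumor cells (13.9%) and endothelial cells (4.41%). A further 12.8% lay in unassigned cells, which carried 19.8% of all UMIs of that library. Its level rose within each class that could be compared and had 20 or more UMIs. Monocytes went from 4.81 to 242.7 CPM, a log2 ratio of 5.66 (4.53 to 7.11). Macrophages went from 11.3 to 97.5 CPM, a log2 ratio of 3.11 (2.89 to 3.34). Endothelial cells, a stromal source, went from 2 UMIs in 63 cells to 126 UMIs in 82 cells, or 3.22 to 122.9 CPM, a log2 ratio of 5.25 (3.37 to 8.31). In 26 of the 82 endothelial cells at least 1 UMI was found, and the highest had 21. Neutrophils stood at 135.0 CPM (125.1 to 145.5) with MSA-2, and their 0 untreated UMIs make that at least 1.90-fold higher. In order, MSA-2 monocytes led, neutrophils and endothelial cells had overlapping intervals, endothelial cells (102.4 to 146.4) and macrophages (89.6 to 105.9) also overlapped, and fibroblasts at 5.28 CPM and tumor cells at 3.09 CPM were far below. Thinned to 1500 UMIs, the share of monocytes with Il27 went from 0.912% (0.188 to 2.64) to 23.1% (19.9 to 26.5). Endothelial cells went from 0 of 61, which allows 4.92%, to 15.6% (8.32 to 25.6). Tumor cells went from 0.0572% to 0.622% and T cells from 0 of 1071 to 1.55% (2 of 129, 0.188 to 5.49). The MSA-2 shares of tumor cells and of fibroblasts (0.640%) were not above that of T cells, which rests on 2 cells, so expression cannot be told apart from free RNA there.

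Ebi3, the partner chain (ENSMUSG00000003206, chr17:55952640-55957022, plus strand, overlapped on the other strand by Gm16712), did not follow Il27. Its untreated UMIs lay 72.8% (69.5 to 75.8) in macrophages, and its MSA-2 UMIs 42.9% in neutrophils and 31.7% in macrophages. Within macrophages the levels were 27.4 and 23.9 CPM, a log2 ratio of -0.20 (-0.47 to 0.07), so a difference was not detectable at this depth. In monocytes, with 14 and 22 UMIs, the log2 ratio of -0.44 (-1.47 to 0.64) also spanned 0. It became 0.88 without the 10 highest cells of each library, of 13 and 22 with Ebi3. Tumor cells held few Ebi3 UMIs (70 and 36), with a log2 ratio of -1.06 (-1.68 to -0.46), or -3.63 with the stricter gate. The thinned shares of tumor cells were 0.0763% and 0.0183%, against 1.77% and 0.775% of T cells. Untreated, the tumor share was below that of T cells. With MSA-2 the T cell share rests on 1 of 129 cells, and its interval (0.0196 to 4.24) overlaps that of tumor cells (0.000463 to 0.102). Among untreated classes, Ebi3 stood at 43.5 CPM (26.6 to 67.3) in mregDC, 25.5 in cDC2 and 23.7 in cDC1, with intervals that overlap those of macrophages. Regulatory T cells are known to use Ebi3, and T cells with a Foxp3 UMI, a split chosen after values were seen, had 35.4 CPM (18.3 to 61.9) against 3.90 CPM (2.18 to 6.43) in T cells without. Over all cells, lower Ebi3 went with fewer macrophages, without a detectable change within them.

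Both chains of interleukin-27 were found together in 38 of 948 untreated cells with either chain (4.01%, 2.85 to 5.46) and in 96 of 1969 MSA-2 cells (4.88%, 3.97 to 5.92). Of cells with Ebi3, 5.37% also had Il27 in the untreated library and 24.4% with MSA-2. Of cells with Il27, 13.6% also had Ebi3 untreated and 5.75% with MSA-2. Among all kept cells, those with Il27 went from 2.09% to 12.5% and those with Ebi3 from 5.30% to 2.94%, so both shares move with how common the other gene was. Macrophages gave 35 of the 38 untreated cells with both, and with MSA-2 neutrophils gave 39 and macrophages 34 of the 96. None of the 26 endothelial cells with Il27 had an Ebi3 UMI, and the 82 endothelial cells had 0 Ebi3 UMIs in all, which allows up to 2.93 CPM. The pair of Il12a and Ebi3, the chains of interleukin-35, occurred in 0 of 712 untreated and 9 of 570 MSA-2 cells with either, 8 of them neutrophils.

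**Figure D3:**
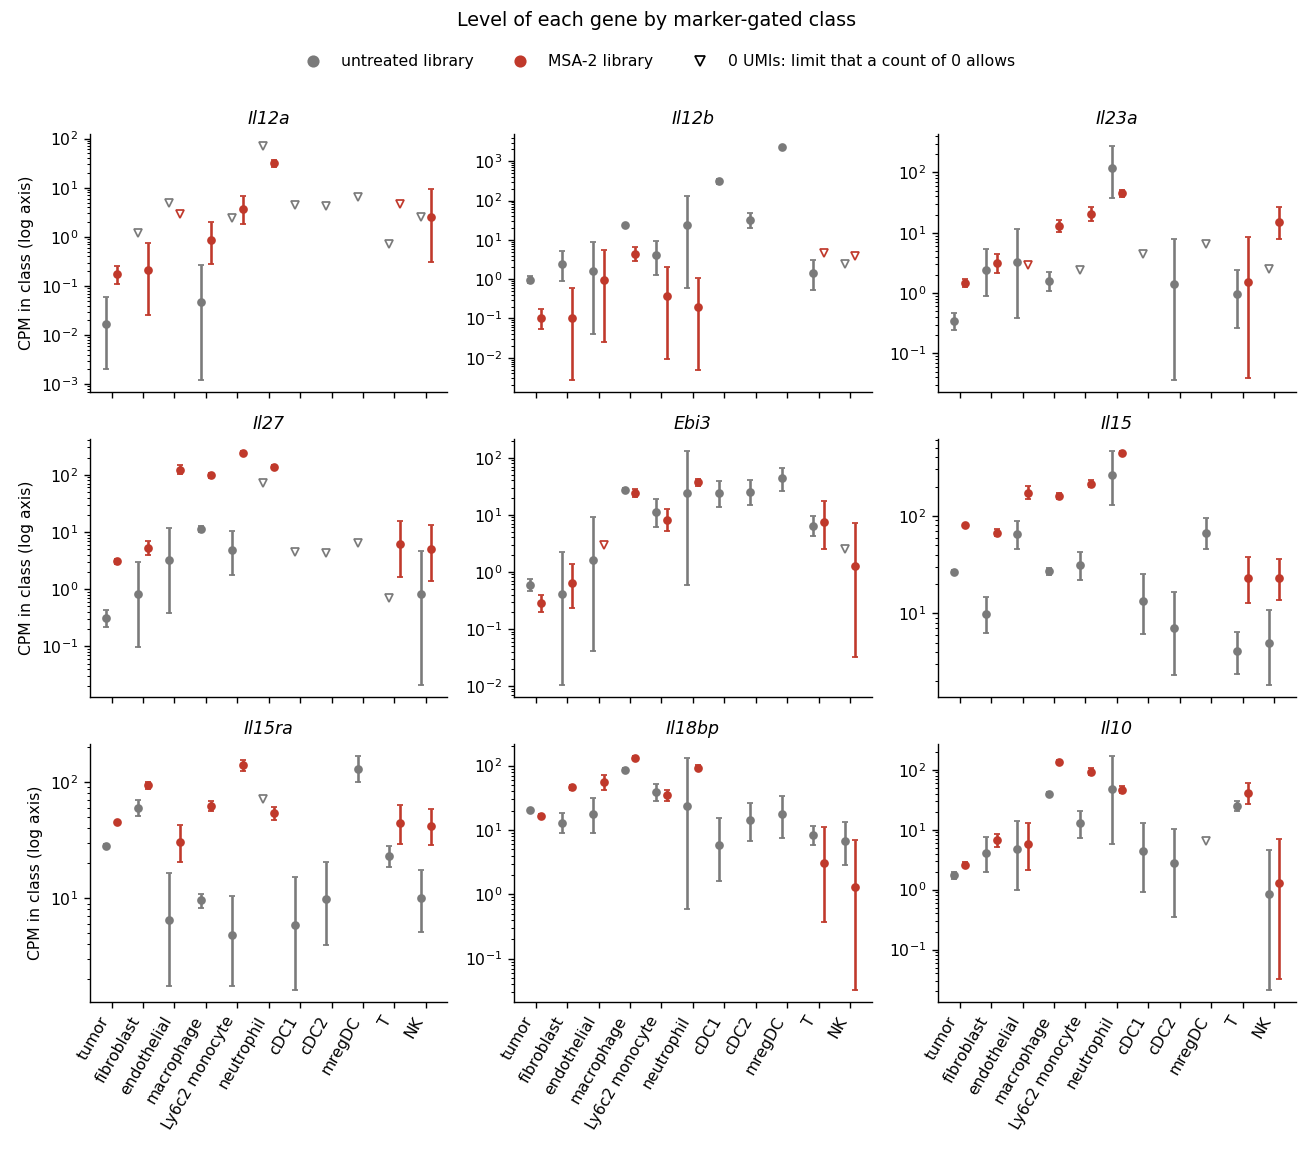
CPM of each gene (log axis) in each marker-gated class with at least 20 cells, untreated in gray and MSA-2 in red, with exact 95% counting intervals, open triangles giving the limit that 0 UMIs allow. Il27 stands at 242.7 CPM in MSA-2 monocytes and 122.9 CPM in MSA-2 endothelial cells, and Il12b at 2325 CPM in untreated mregDC.

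Il15, the growth and survival cytokine of NK and memory CD8 T cells (ENSMUSG00000031712, chr8:82331632-82403222, minus strand), was found in every class with at least 50 cells. Tumor cells held 67.6% (66.3 to 69.0) of its untreated UMIs and 58.1% (57.4 to 58.8) of those with MSA-2. Its log2 ratio was above 0, with an interval clear of 0, in 7 of the 8 classes compared, neutrophils being the exception. Macrophages went from 27.1 to 160.7 CPM, a log2 ratio of 2.57 (2.42 to 2.72). Monocytes went from 31.3 to 214.6 CPM, a log2 ratio of 2.78 (2.31 to 3.29), or 3.50 with graph clusters. Fibroblasts went from 9.77 to 67.5 CPM, a log2 ratio of 2.79 (2.20 to 3.44). Without the 10 highest cells of each library, of 19 and 294 with Il15, it was 3.91. Untreated fibroblasts thus had less Il15 than macrophages, monocytes or endothelial cells. Endothelial cells went from 64.5 to 173.7 CPM, a log2 ratio of 1.43 (0.93 to 1.96). Without the 10 highest cells of each library, of 20 and 55 with Il15, it was 2.35. Tumor cells went from 26.7 to 80.8 CPM, a log2 ratio of 1.60 (1.54 to 1.66). T and NK cells, which respond to interleukin-15, had low levels, 4.06 to 22.8 CPM in T cells (2.49, 1.39 to 3.58) and 4.98 to 22.9 CPM in NK cells (2.20, 0.81 to 3.83). Neutrophils had the highest level of the MSA-2 library, 440.0 CPM (422.0 to 458.7), against 260.3 CPM (129.97 to 465.8) in the 33 untreated neutrophils, a log2 ratio of 0.76 (-0.09 to 1.76), or 1.86 with TMM factors. After thinning, 42.2% (39.9 to 44.5) of MSA-2 neutrophils had Il15, 27.3% of endothelial cells, 23.4% of monocytes and 18.8% of macrophages. Thinned tumor cells went from 4.71% (4.15 to 5.32) to 11.9% (11.04 to 12.78), above the T cells of the same libraries at 0.747% and 3.101%. Its source was not tested further. Tumor clusters ranged from 12.7 to 74.7 CPM of Il15 in the untreated library and from 38.5 to 205.5 CPM with MSA-2.

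Il15ra, the chain that holds interleukin-15 on the cell surface (ENSMUSG00000023206, chr2:11705290-11734317, plus strand), was higher with MSA-2 in each class that has a log2 ratio. Monocytes went from 6 UMIs to 370, or 4.81 to 138.8 CPM, a log2 ratio of 4.85 (3.72 to 6.31). Macrophages went from 9.56 to 62.2 CPM, a log2 ratio of 2.70 (2.45 to 2.96). Fibroblasts already had 59.8 CPM untreated and 93.7 CPM with MSA-2, a log2 ratio of 0.65 (0.39 to 0.91). Among untreated classes of at least 20 cells only mregDC were higher, at 130.6 CPM (99.7 to 168.2), apart from neutrophils, whose 0 UMIs allow up to 71.0 CPM. Tumor cells held 73.7% of Il15ra UMIs untreated and 61.1% with MSA-2. Fibroblasts held 3.22% of Il15ra UMIs untreated and 9.43% with MSA-2. Endothelial cells went from 4 UMIs to 31, a log2 ratio of 2.23 (0.73 to 4.19). Tumor cells went from 28.1 to 44.9 CPM, a log2 ratio of 0.67 (0.61 to 0.74). T cells had a log2 ratio of 0.94 (0.29 to 1.56), and 0.12 without the 10 highest cells of each library. Those 10 came from 81 untreated and 21 MSA-2 T cells with Il15ra, so the fall does not show outliers. NK cells, from 12 to 33 UMIs, had a log2 ratio of 2.08 (1.09 to 3.17), and 4.64 without the 10 highest cells. Only 11 untreated and 25 MSA-2 NK cells had Il15ra, so the 4.64 rests on very few cells. After thinning, 0.304% (0.00770 to 1.68) of untreated and 19.2% (16.2 to 22.5) of MSA-2 monocytes had Il15ra, against 3.64% and 6.98% of T cells. The thinned shares of tumor cells were 4.31% (3.78 to 4.89) and 8.09% (7.38 to 8.84). These overlap the T cell intervals, 2.60 to 4.94 and 3.24 to 12.8, so tumor cells were not shown to be above T cells.

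Cells with both Il15 and Il15ra, the pair needed for presentation by the same cell, made up 1090 of 4952 untreated cells with either (22.0%, 20.9 to 23.2) and 3349 of 8902 MSA-2 cells (37.6%, 36.6 to 38.6). Macrophages went from 40 of 620 (6.45%) to 145 of 568 (25.5%). Monocytes went from 0 of 39 (exact 95% interval up to 9.03%) to 126 of 432 (29.2%). Fibroblasts went from 11 of 95 (11.6%) to 218 of 480 (45.4%). Seen from the receptor chain, 12.6% of untreated and 54.0% of MSA-2 fibroblasts with Il15ra also had Il15. Tumor cells went from 26.7% to 48.0%, with median depths of 20565 and 20147 UMIs. In MSA-2 neutrophils 132 of 1350 cells (9.78%) had both, since 1244 had Il15 and only 238 Il15ra. These shares rise with depth and with how common each gene was: 9.55% of all untreated and 45.9% of all MSA-2 fibroblasts had Il15, with or without Il15ra. Thinned to 1500 UMIs the shares with both chains among cells with either were 2.82% and 8.35% over all kept cells.

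**Figure D4:**
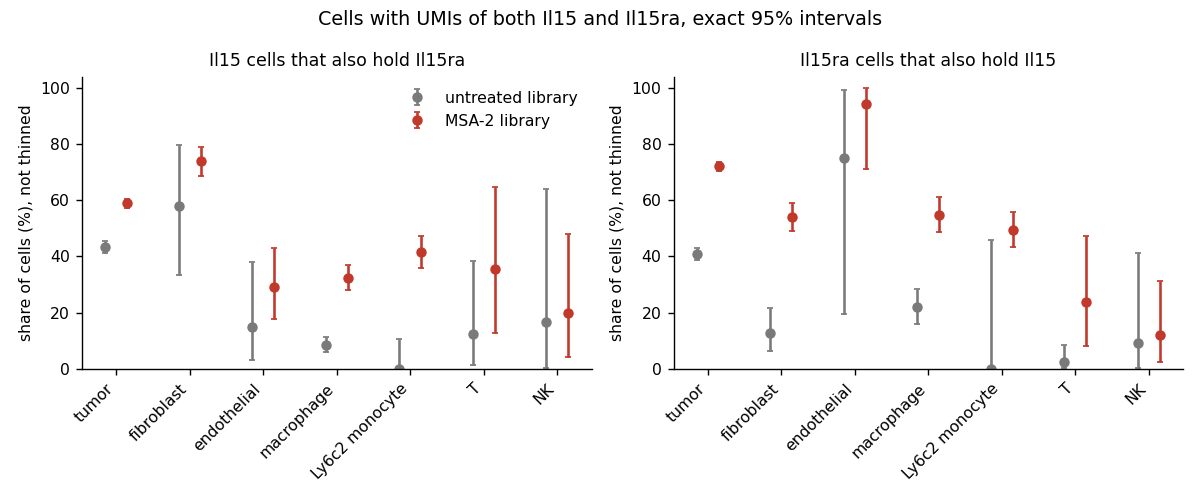
Share of cells with Il15 that also have Il15ra (left) and of cells with Il15ra that also have Il15 (right), per class and library, not thinned, with exact 95% intervals. In fibroblasts the share on the right is 12.6% untreated and 54.0% with MSA-2, against 9.55% and 45.9% of all fibroblasts with Il15.

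Il18bp, the decoy that binds interleukin-18 (ENSMUSG00000070427, chr7:102014885-102018690, minus strand, with Numa1 on the other strand), changed little in total and more by class. Tumor cells held the most of its UMIs, 49.4% untreated and 46.2% with MSA-2, less than their share of all UMIs. Macrophages held 36.4% (35.1 to 37.7) of its UMIs untreated and 16.6% with MSA-2, and fibroblasts and neutrophils reached 9.47% and 10.1% with MSA-2. Within macrophages the level rose from 86.7 to 132.6 CPM, a log2 ratio of 0.61 (0.49 to 0.74). Macrophages with Folr2, whose part of the class grew, went from 113.5 to 194.2 CPM, and those without from 84.9 (80.8 to 89.0) to 99.04 CPM (89.2 to 109.6). In the macrophage clusters with Lyve1 among their leading genes, Il18bp was 55.8 CPM untreated and 190.0 CPM with MSA-2. The other macrophage clusters ranged from 26.9 to 108.0 CPM untreated and from 106.0 to 106.4 CPM with MSA-2. How far a change of mix enters the class ratio was not tested. Fibroblasts went from 13.03 to 46.3 CPM, a log2 ratio of 1.83 (1.31 to 2.40). Without the 10 highest cells of each library, of 24 and 267 with Il18bp, it was 2.79. Endothelial cells went from 17.7 to 55.6 CPM, a log2 ratio of 1.65 (0.70 to 2.73). All of these intervals are clear of 0, and the classes were not tested against each other. In tumor cells the level was lower, 20.7 and 16.7 CPM, a log2 ratio of -0.31 (-0.39 to -0.22). Monocytes, at 38.5 and 34.5 CPM, had a log2 ratio of -0.16 (-0.68 to 0.38), not a detectable difference. T cells had 35 and 2 UMIs, a log2 ratio of -1.46 (-4.56 to 0.50). The ligand, Il18, rose within macrophages from 34.9 to 70.4 CPM (log2 ratio 1.01) and within monocytes from 56.9 to 171.8 CPM (log2 ratio 1.59), and was lower within tumor cells, 12.2 and 7.45 CPM (log2 ratio -0.71). Thinned shares of Il18bp in MSA-2 cells were 13.6% of macrophages, 13.4% of neutrophils, 10.4% of endothelial cells, 6.88% of fibroblasts, 2.67% of tumor cells and 0 of 129 T cells.

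Il10 codes for the cytokine that dampens macrophage and dendritic cell activation (ENSMUSG00000016529, chr1:131019845-131024974, plus strand). Macrophages held 64.9% (62.3 to 67.6) of its UMIs untreated and 38.4% (36.3 to 40.6) with MSA-2, where monocytes held 12.2% and neutrophils 11.6%. Tumor cells held 16.2% untreated and 16.6% with MSA-2, and unassigned cells 7.67% and 16.1%. Within macrophages it went from 39.5 to 134.2 CPM, a log2 ratio of 1.77 (1.62 to 1.91). Monocytes went from 12.8 to 93.0 CPM, a log2 ratio of 2.86 (2.13 to 3.69), and 6.21 without the 10 highest cells of each library, since 11 untreated monocytes held all 16 UMIs. T cells had 25.1 and 41.1 CPM, a log2 ratio of 0.71 (0.04 to 1.33), with the 27 MSA-2 UMIs in 7 cells. Il10 is known from tissue-resident macrophages and regulatory T cells, and splits by Folr2 and Foxp3, chosen after values were seen, bore on both. Macrophages with a Folr2 UMI had 124.1 CPM (105.8 to 144.6) untreated and 187.3 CPM (169.1 to 207.1) with MSA-2. Those without Folr2 had 33.8 CPM (31.3 to 36.5) and 105.2 CPM (95.05 to 116.1). Il10 was thus higher with MSA-2 on both sides of the split, while the mix changed as well, with 186 of 3599 untreated and 290 of 1101 MSA-2 macrophages having Folr2. In the macrophage clusters with Lyve1 among their leading genes, Il10 was 242.8 CPM untreated and 249.0 CPM with MSA-2. Untreated T cells with Foxp3 had 118.1 CPM (84.4 to 160.9) and those without 16.9 CPM (13.03 to 21.5), and only 6 MSA-2 T cells had Foxp3. Tumor cells had 1.73 and 2.62 CPM, and thinned shares of 0.286% and 0.512% against 4.73% and 12.9% of macrophages.

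The number of these genes past 2-fold exceeded the share of all genes in most classes, and a comparison of so few genes is a description only. In macrophages, 8 of the 9 had at least 20 UMIs, 5 of them higher (Il23a, Il27, Il15, Il15ra and Il10) against 7.71% of 13261 genes, and 1 lower (Il12b) against 7.35%. In monocytes, 7 had 20 UMIs, the same 5 higher against 11.3%, and 0 lower against 12.4%. In fibroblasts, 6 had 20 UMIs, with Il27, Il15 and Il18bp higher against 8.54% and 0 lower against 9.06%. In endothelial cells, 4 had 20 UMIs, all higher (Il27, Il15, Il15ra and Il18bp) against 6.37%, and 0 lower against 7.14%. These 4 classes thus shared Il15 and Il27, the latter in fibroblasts with a thinned share not above that of T cells. In T cells, 5 had 20 UMIs, with Il15 higher against 5.75% and Il18bp lower against 11.4%. That Il18bp ratio rests on 35 and 2 UMIs, and its interval (-4.56 to 0.50) spans 0. In NK cells, 2 had 20 UMIs, Il15 and Il15ra, both higher against 5.47%, and 0 lower against 7.69%. In tumor cells all 9 had 20 UMIs, with Il12a, Il23a, Il27 and Il15 higher against 10.9% and Il12b and Ebi3 lower against 6.17%. The thinned tumor shares of Il12a, Il23a, Il27 and Ebi3 were not above those of T cells or their limit. TMM factors, which center the ratios of most genes, added 0.30 to log2 ratios in monocytes, 0.22 in fibroblasts, 0.17 in endothelial cells and 1.10 in neutrophils.

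Other genes of the pathways were compared as well, 43 in a list of receptors, relay, feedback, partner, regulator and target genes. Over all kept cells 42 had at least 20 UMIs, 2 of them at least 2-fold higher (Bcl3 and Il23r) against 11.2% of all genes, and 11 lower against 8.36%, with a median log2 ratio of -0.31. For the classes, the shares of all genes past 2-fold are those given above. Among receiving cells, T cells had 39 measured, 5 higher (5.75% of all genes) and 4 lower (11.4%), and NK cells 36, 5 higher (5.47%) and 6 lower (7.69%). Ifng, the classic target of interleukin-12, went from 777.3 to 3158 CPM in T cells (log2 ratio 2.02) and from 473.0 to 1783 CPM in NK cells (1.91), against a log2 ratio of -0.13 over all kept cells. Of the graph clusters, 4 untreated and 1 MSA-2 got the T cell class. T cell subsets were not compared, so a change of mix and of level within T cells cannot be told apart. Il12rb2, a receptor chain of interleukin-12, went from 206.5 to 418.3 CPM in T cells (1.02). Il10ra, the ligand-binding interleukin-10 receptor chain, went from 94.5 to 254.0 CPM in T cells (1.43) and from 77.2 to 159.3 CPM in NK cells (1.05). Il27ra, the interleukin-27 receptor, was lower in T cells, 25.8 and 10.6 CPM (-1.28). So receptors of these cytokines differed in direction within the same class. Tbx21, the T-bet factor induced by interleukin-12, was lower in T cells at 169.7 and 79.1 CPM (-1.10) and in NK cells at 156.8 and 66.3 CPM (-1.24). In macrophages 36 were measured, 2 higher (Il18 and Il18rap) and 4 lower, with Batf3, a factor of dendritic cell development, going from 35.4 to 6.03 CPM (-2.56). In monocytes 29 were measured, 2 higher (Il12rb2 and Il18) and 4 lower, among them Irf8 from 330.2 to 111.8 CPM (-1.56). Stromal classes had few past 2-fold, 3 higher and 2 lower of 33 in fibroblasts and 1 higher and 2 lower of 20 in endothelial cells, and tumor cells had 5 higher and 6 lower of 41.

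For each of the 9 genes, the genes most alike in level were found by Pearson correlation of log2 CPM over 18 sums, each a class in a library with at least 50 cells. These points share libraries and differ in depth, so the values only describe. Il12a was most like Gm20406 (0.99) and Cxcr2 (0.99). It was under 4 CPM in all sums but that of MSA-2 neutrophils, the only neutrophil sum, so this likeness restates that class and shows no tie beyond it. Il12b was most like Mab21l3, Bcl2l14 and Strip2 (0.97 each). It stood at 2325 CPM in untreated mregDC, the only mregDC sum, at 307.2 CPM in cDC1 and at most 32.6 CPM elsewhere. This likeness thus largely restates those classes. Il23a was most like Gm15729 (0.96) and Fpr1 (0.93), a formyl peptide receptor of neutrophils. Il27 was most like Gm7160 (0.94), and Ebi3 most like Bcl2a1a (0.93) and Ncf1 (0.92). No shared theme was tested among these genes. Il15 was most like Tdrd7 (0.97), Oas2 (0.92) and Nfkbia (0.92). Of these, Tdrd7 and Oas2 are known interferon-induced genes, and a shared theme was not tested. Il15ra was less closely matched, with Fas first (0.79). Il18bp was most like Dusp1 (0.88), and Il10 most like Tlr7 (0.91).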

How the data were processed

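Per the file headers, the deposited matrices hold raw UMI counts per gene and barcode from Cell Ranger 7.0.1; the submitters' processing notes give Cell Ranger 7.0.0, mm10 and Seurat 4.3.0, and the authors had already filtered the barcodes. Barcodes with fewer than 500 genes or over 20% mitochondrial UMIs were left out, and doublets predicted by Scrublet in each library were removed (705 untreated, 570 MSA-2). A cell took the class with the highest mean marker score (each marker scaled to its 99th percentile) if the score was at least 0.25, led the next by 0.05 and 3 markers had a UMI; fibroblasts also needed 10 Col1a2 UMIs per 10000. UMIs were summed per class and library and divided by the class total. Levels have exact Poisson intervals, shares Clopper-Pearson intervals and ratios conditional binomial intervals, for counting error only. A count of 0 was taken to allow 3 UMIs or cells, except for chain pairs, which have exact limits; folds against 0 are bounds from it that leave out the counting error of the other count. Classes with under 20 cells in a library were not compared. Cells were thinned to 1500 UMIs without replacement for shares, and shallower cells left out. The 9 genes and the lists were chosen with earlier results of these data known. The gate, the Foxp3 and Folr2 splits and the AANNGAAA motif were set with the data in view. Positions are from GENCODE on GRCm38 and promoters from RefSeq. Software: Python 3.11.15, numpy 2.4.6, scipy 1.17.1, pandas 2.3.3, scanpy 1.11.5, matplotlib 3.10.9, R 4.3.3 and edgeR 4.0.16. The log2 ratios and their intervals were tested on counts simulated from the macrophage sums, and the other steps were not. Alternatives changed the cell filter, doublets, scaling, gate, thinning, fold and UMI minimum.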

Additional observations from a re-analysis of the deposited data

Results flagged for a closer look

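Il18bp moved in opposite directions between classes: higher with MSA-2 in macrophages, fibroblasts and endothelial cells and lower in tumor cells. The log2 ratio was 0.92 higher in macrophages than in tumor cells, 2.14 higher in fibroblasts and 1.95 higher in endothelial cells, and the difference was not tested in any of these pairs. Cells with Folr2, higher in Il18bp than those without, were a larger part of MSA-2 macrophages. The untreated macrophage cluster with Lyve1 among its leading genes had 55.8 CPM of Il18bp and its MSA-2 counterpart 190.0 CPM. How far a change of mix enters the macrophage ratio was not tested.

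Barcodes that the cell filter leaves out numbered 347 untreated and 654 MSA-2. Outside this paragraph they enter only the opening barcode and UMI counts and the alternative with no cell filter. Some of the 9 genes differed in them between the libraries. The share of all genes that differ in these barcodes was not computed, so the values stand without a background. Il15 went from 10 UMIs to 192, a log2 ratio of CPM of 3.71 (2.80 to 4.80). Il27 went from 4 to 59 UMIs, a log2 ratio of 3.33 (1.90 to 5.26). Il23a went from 0 to 43 UMIs, a log2 ratio of at least 3.29. Il15ra had a log2 ratio of 1.94 (0.95 to 3.07) and Il10 one of 1.73 (0.54 to 3.15). Il12b went from 9 UMIs to 1, a log2 ratio of -3.72 (-9.17 to -0.87). What these barcodes are was not tested.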

How the results depend on the processing

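Over all kept cells, the 9 log2 ratios held within their intervals with no cell filter, with doublets kept and with TMM factors. With a stricter cell filter (1000 genes, 10% mitochondrial UMIs), ratios moved to 3.87 for Il12a, 2.12 for Il23a, 2.80 for Il27, -1.57 for Ebi3, 1.72 for Il15, -0.27 for Il18bp and 0.48 for Il10. With equal weight per cell they moved to -3.90 for Il12b, 3.85 for Il23a, 3.96 for Il27, 2.65 for Il15, 1.53 for Il15ra and 1.01 for Il10, and reversed to 0.13 for Ebi3 and 0.19 for Il18bp. Without the 10 highest cells of each library, Il12b moved to -5.69 and Il23a to 2.95, and Il12a gave no value. The cause was not tested. Leaving out 10 cells takes a larger part of the cells with a UMI where these are few. Such values, also within classes, therefore depend on the number of those cells and do not show outliers. Within classes, 308 of 333 values stayed within their intervals, 25 moved and 0 reversed, where a reversal is counted for ratios whose interval excludes 0 (Ebi3 in monocytes, -0.44 with an interval across 0, moved to 0.88), and 27 gave no value (a sum of 0 or under 20 cells). Of 78 shares of UMIs by class, 43 stayed and 35 moved. No graph cluster of the MSA-2 library got the mregDC class, so its 0 Il12b UMIs under that setting were not measured in mregDC. Thinned shares moved in 134 of 170 values, as other depths must. Counts of cells with both chains stayed in 6 of 20. Background counts changed by over 1.5 times in 47 of 48. For all kept cells they were 3721 higher and 3046 lower at 1.5-fold, 4463 and 3691 with 1 UMI, and 1279 and 1116 with 100 UMIs. As shares of the genes tested, these were 19.1% and 15.6%, 17.1% and 14.1%, and 8.06% and 7.03%, against 11.2% and 8.36%. A changed UMI minimum also changes the number of genes tested, and some shares hardly moved. In endothelial cells the share higher was 6.37%, and 6.38% with 100 UMIs.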

Other observations

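In the untreated library, macrophage clusters differed in Il12b and Il10. The cluster led by Ifnb1, Klra17 and Cxcl13 had 43.2 CPM of Il12b and 24.6 CPM of Il10. The cluster led by Cd209f, Lyve1 and Cbr2 had 0 Il12b UMIs and 242.8 CPM of Il10, and its MSA-2 counterpart by leading gene, led by Lyve1, had 249.0 CPM of Il10.

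In the MSA-2 library, 55 of the 109 Il12b UMIs lay in a graph cluster of 58 cells that got no class as a cluster, led by the MHC class II genes H2-Eb1, H2-Aa and H2-Ab1 (145.9 CPM). Unassigned cells held 25 of the 109 UMIs, so this cluster overlaps cells that have a class by markers. Another MSA-2 cluster without a class had 583 cells with a median of 1386 UMIs, led by Htr7, Tnfsf15 and Cd86. It had 117.7 CPM of Il27, 203.4 of Il15, 104.6 of Il15ra and 71.3 of Il10. What these cells are was not tested. Within MSA-2 neutrophils, the cluster led by Mrgpra2b and Il1b had 206.2 CPM of Il27 and the one led by Cstdc4 and Csta3 had 72.7 CPM. Il15 in MSA-2 tumor cells was highest in the cluster led by Il23r and Il11, at 205.5 CPM.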
